A study of Canis lupus familiaris with 29 samples.

Results

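MDCKII is an established epithelial line from dog kidney. Wild-type MDCKII cells that had been seeded on transwell inserts, which are porous membranes that let medium reach both faces of a cell layer, were compared after 4 days with the cells used for seeding. The comparison used 7 of the 29 RNA sequencing libraries of the series, namely 4 of wild-type cells for seeding (day 0) and 3 of wild-type 2D cultures at day 4, chosen by their titles. Per the labels the 2D cultures were grown past confluence, and the medium was Eagle's minimal essential medium with added serum for every culture. Beside them stood longer insert cultures of day 11 (n = 3) and cysts, hollow balls of cells on the basement membrane gel matrigel, of day 3 and day 5 (n = 2 each), all wild type. Time, the insert, confluence and cell density change together between day 0 and day 4, and their effects cannot be told apart. Nothing in the labels ties a replicate to a culture of its own, and the p-values rest on the spread between libraries, which may be technical.

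Simple epithelia such as the kidney tubule are polarized. Tight junctions seal the cells to each other and separate an apical membrane that faces the lumen from a basolateral membrane that carries the sodium pump and rests on a basement membrane. MDCK cells on porous supports are a textbook model of this: they stop dividing when crowded, sort proteins to opposite surfaces, move salt and water across the sheet and grow a primary cilium, a sensory antenna made once the cell has left the cell cycle.

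Values are FPKM, fragments counted per length of transcript and per depth of the library, which the authors deposited for each gene and library. A gene was tested where 2 or more of the 7 libraries reached 1 FPKM, which held for 11051 of the 24223 genes in the files. A further 9317 genes were listed at 0 in all 7. Fold changes are log2 differences of FPKM + 1 between the group means, given with their standard error (SE), and the added 1 shrinks the change of weakly expressed genes. A gene is said to have risen or fallen where limma's adjusted p was under 0.05. Values of single libraries are given in the order of replicates 1 to 4 for day 0 and 1 to 3 for day 4. In each gene given below with the values of its libraries and said to have risen or fallen, the day 4 libraries did not overlap the day 0 libraries; some other genes counted as risen or fallen do overlap.

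Replicate 1 of day 0 and replicate 1 of day 4 stood apart from the other 5 libraries. Their depth, estimated against day 0 replicate 2 (for which the estimate itself reads 0.993), was 0.463 and 0.438, against 0.829 to 1.064 in the others, and the small gene TIMM13 was listed at 0 in these 2 libraries and at 66.8 to 143 FPKM in the others. As each group holds 1 such library, the change was also read within that pair and within the other libraries. Of the 6363 genes that changed, 6343 had the same direction in the pair, which is itself part of the fit, and 5678 passed the test in the same direction without it.

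The change reached a large part of the transcriptome. Of the genes tested, 3188 rose (28.8%) and 3175 fell (28.7%), and the median over all genes tested was -0.01. Among them 1070 rose at least 2-fold (9.68%) and 891 fell at least 2-fold (8.06%), while 174 rose and 133 fell at least 4-fold. With shares this high, the count of changed members of a gene list is read below against 28.8% and 28.7%. In bulk RNA, fewer cells of a kind and less RNA per cell cannot be told apart.

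**Figure D1:**
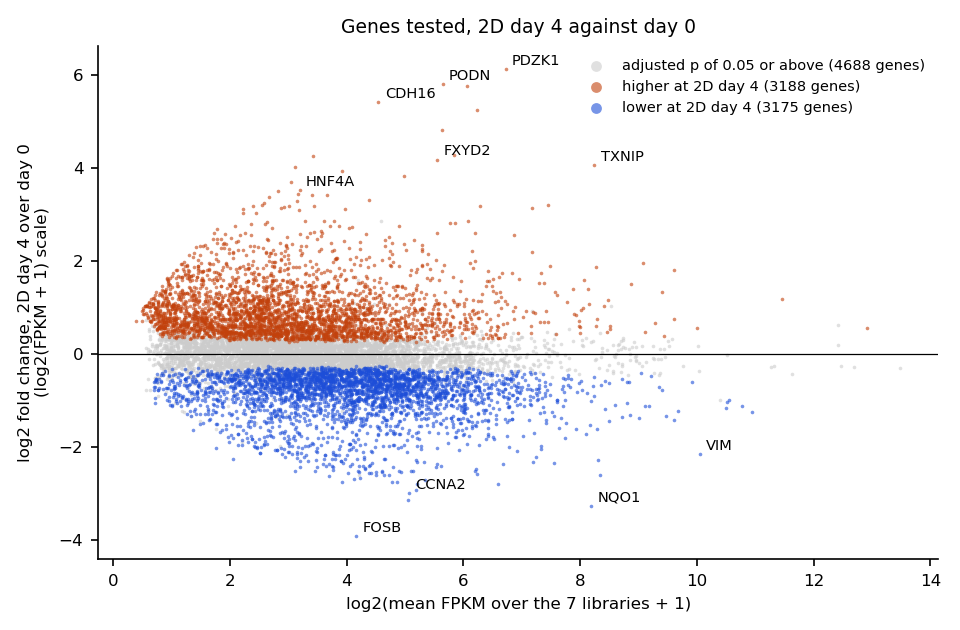
Each point is a gene tested; the horizontal axis is log2 of the mean FPKM over the 7 libraries plus 1 and the vertical axis the log2 fold change of 2D day 4 over day 0. Orange points are the 3188 genes that rose and blue points the 3175 that fell; the named risers reach 6.13 (PDZK1) and the named fallers -3.91 (FOSB).

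Epithelial and kidney tubule markers were expressed in both groups. All 8 epithelial markers reached 1 FPKM, with a summed level of 890 to 1019 FPKM at day 0 and 665 to 847 at day 4. Of these 8 markers 4 fell and 2 rose, with a median log2 fold change of -0.42. The 8 kidney tubule markers summed to 182 to 215 FPKM at day 0 and 360 to 461 at day 4, and 6 of the 7 tested rose. Markers of other cell types were low: the 7 leukocyte markers found summed to 0.339 to 0.481 FPKM at day 0 and 0.121 to 0.368 at day 4, with PTPRC, CD3E and ITGAM at 0. The fibroblast markers summed to 3.85 to 8.78 and 0.95 to 2.1 FPKM, nearly all of it FBLN1, with PDGFRB and DCN at 0. The 8 endothelial markers summed to 34.8 to 44.3 and 16 to 22.8 FPKM. This sum was nearly all FLT1, a VEGF receptor, which fell by 1.02 ± 0.14 on the log2 scale, while EMCN and ERG were at 0. Most markers of single nephron segments stayed below 1 FPKM. Of 8 found for principal cells, 4 were listed at 0 in all 7 libraries, among them AQP2, SCNN1G and KCNJ1. The same held for 3 of 9 for intercalated cells, with FOXI1 and ATP6V0A4. It also held for 4 of 9 for the proximal tubule, with LRP2, SLC34A1 and SLC22A6. Those that reached 1 FPKM in any of the 7 libraries numbered 3 for principal cells, 1 for intercalated cells and 2 for the proximal tubule. The highest value in each list was 12.9 FPKM for GATA3, 59.7 for ATP6V1B1 and 26.8 for HNF4A.

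The named gene with the largest rise was PDZK1, a scaffold that holds transporters in the brush border. It measured 0.811, 3.98, 0.997 and 4.89 FPKM at day 0 and 359, 140 and 222 at day 4, a log2 fold change of 6.13 ± 0.46 (adjusted p = 1.07e-05). The groups were far apart, and the rise was 7.64 within the libraries that stand apart and 5.52 without them. CDH16, the kidney-specific cadherin, went from 0.121, 0.21, 0.186 and 0.362 FPKM to 66.1, 39.6 and 49.6 (5.41 ± 0.17, adjusted p = 8.71e-07), so a gene near 0 in each day 0 library was well expressed in each monolayer. PODN, which encodes a secreted leucine-rich proteoglycan, went from 0.21, 1.06, 0.67 and 3.14 FPKM to 121, 105 and 113 (5.80 ± 0.34, adjusted p = 4.85e-06). SEPP1, which encodes the secreted selenium carrier selenoprotein P, went from 0.68, 7.05, 1.7 and 5.2 FPKM to 110, 110 and 103 (4.81 ± 0.46). In each of these genes day 0 replicate 1 was the lowest library. TSPAN1, a tetraspanin of cell membranes, went from 5.14, 2.22, 4.31 and 3.48 FPKM to 85.9, 50.3 and 63.9 (3.83 ± 0.24), and here day 0 replicate 1 was the highest of its group.

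**Figure D2:**
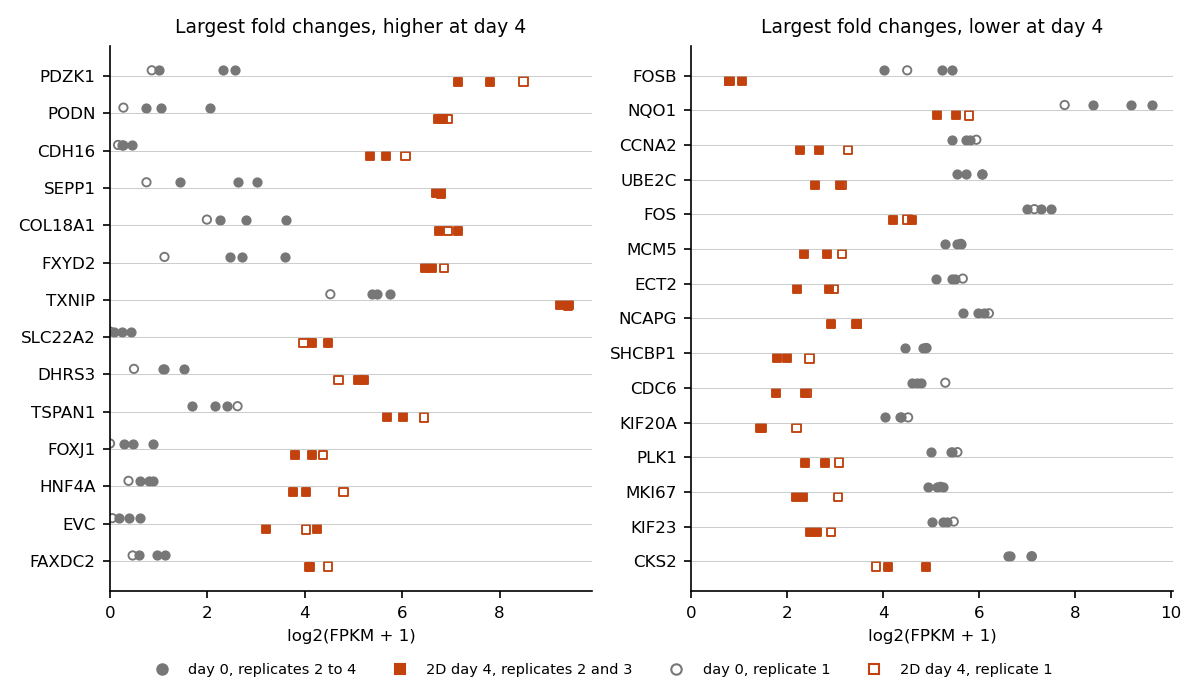
Each row is a gene and each symbol a library, on a horizontal axis of log2(FPKM + 1); circles are day 0, squares 2D day 4, and open symbols the replicate 1 libraries that stand apart. The named genes with the largest fold changes are shown, risers on the left and fallers on the right, and in none of them do the day 0 and day 4 libraries overlap.

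Of 28 apical membrane and brush border genes in the files 18 passed the filter on low values, and 13 of these rose and 2 fell, with a median log2 fold change of 0.68. Beside PDZK1, USH1C, which encodes the microvillus scaffold harmonin, went from 2.28, 4.4, 4.78 and 4.63 FPKM to 32.8, 29.7 and 29.8 (2.70 ± 0.19). MME, the brush border peptidase neprilysin, was at 0.0543 FPKM or less in the day 0 libraries and at 2.47, 2.96 and 3.73 at day 4 (1.97 ± 0.14). CUBN, the vitamin B12 and protein scavenging receptor cubilin, rose from 2.18, 2.59, 2.18 and 2.32 FPKM to 5.96, 4.49 and 3.62 (0.76 ± 0.15). Several of these genes are best known from the proximal tubule, whose receptor gene LRP2 was listed at 0. The 2 that fell, MSN (-0.65 ± 0.18) and RDX (-0.47 ± 0.12), encode moesin and radixin, which tie membranes to actin. Their relative EZR, the ezrin of microvilli, chosen after its values were seen, rose from 240, 198, 210 and 177 FPKM to 316, 309 and 302 (0.59 ± 0.13).

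Of the genes for apical trafficking, 7 of 27 tested rose and 6 fell, close to the shares over all genes, and the median was -0.06. Within the list the values spread widely. RAB17, an epithelial GTPase of apical recycling and transcytosis, rose from 0.423, 0.865, 0.723 and 1.32 FPKM to 8.13, 7.46 and 6.88 (2.23 ± 0.17). SYTL2, which links RAB27 vesicles to the apical membrane, rose from 2.42, 4.94, 4.05 and 6.4 FPKM to 27, 22 and 22.7 (2.24 ± 0.23), whereas its partner RAB27A fell by 0.56 ± 0.12. RAB8A (-0.63 ± 0.15) and RAB10 (-0.59 ± 0.13), GTPases of exocytosis from the Golgi and endosomes, also fell.

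Junction and polarity genes moved in both directions. Among tight junction genes 6 of 21 tested rose and 6 fell (median -0.07). CLDN2, which forms a pore for sodium and water and makes an epithelium leaky, went from 6.54, 15.5, 14.3 and 22.4 FPKM to 106, 82.5 and 74 (2.59 ± 0.32, adjusted p = 0.000166). Its rise was 3.82 within the libraries that stand apart and 2.13 without them. The claudin genes CLDN1 (-0.72 ± 0.13) and CLDN4 (-0.64 ± 0.15) fell, as did CLDN7, from a mean of 269 to 136 FPKM. CLDN10 was listed at 0 in all day 0 libraries and at 6.73, 1.66 and 2.66 FPKM at day 4. The scaffold gene TJP3 rose from 4.48, 5.52, 5.74 and 6.08 FPKM to 13.4, 12.9 and 13.1 (1.14 ± 0.12). By contrast the scaffold TJP1 (34.3, 38.1, 34.5 and 35.2 FPKM, then 34.8, 34 and 29.3) and occludin, OCLN (39.7, 37.6, 34.5 and 31.5, then 34, 32 and 26.4), both looked up after seeing the data, did not pass the test (adjusted p = 0.363 and 0.182).

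In the adherens junction and desmosome list 5 of 22 rose and 7 fell (median -0.15). E-cadherin, CDH1, fell from 247, 251, 244 and 208 FPKM to 184, 182 and 134 (-0.52 ± 0.15, adjusted p = 0.0145), and its cytoplasmic partner CTNNB1, beta-catenin, rose from 166, 202, 180 and 193 FPKM to 426, 377 and 312 (0.99 ± 0.14). EVPL, the desmosomal linker envoplakin, rose from 6.97, 8.52, 7.39 and 7.41 FPKM to 44, 31.7 and 28.5 (2.04 ± 0.15), while the desmosomal cadherins DSG2 (-0.72 ± 0.13) and DSC3 (-1.33 ± 0.16) fell. Among the genes of the Par, Crumbs and Scribble complexes, which set the apical and basolateral domains, 2 of 14 rose and 3 fell. The risers are both of the Crumbs complex: INADL, the scaffold PATJ, from 18.6, 28, 21.4 and 26.7 FPKM to 58.6, 54.7 and 50.7 (1.19 ± 0.15), and MPP5, its partner PALS1 (0.63 ± 0.11). The 3 fallers, PRKCZ (-0.40), LLGL2 (-0.36) and MARK2 (-0.36), lost their call in 5, 6 and 3 of the 17 alternative analyses. The list had 0 fallers without day 4 replicate 3, day 0 replicate 2 or day 0 replicate 3. It had 1 without day 4 replicate 1, and 5 risers with quantile normalization.

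Genes that move salt and water rose in part. Of 47 tubular ion and water transport genes in the files 26 passed the filter, and 11 of these rose and 6 fell (median 0.20). ATP1B1, the beta subunit of the sodium pump, did not pass the test, at 122, 106, 89.8 and 102 FPKM and then 115, 93.6 and 86.7 (-0.09 ± 0.15, adjusted p = 0.606). FXYD2, a regulatory subunit of the pump in kidney, went from 1.17, 5.53, 4.49 and 11 FPKM to 115, 86.9 and 97.1 (4.18 ± 0.46), 5.74 within the libraries that stand apart and 3.62 without them. FXYD5, a family member that is high in carcinomas, fell from 7.34, 9.72, 10.2 and 7.21 FPKM to 2.67, 4.79 and 2.12 (-1.23 ± 0.21). The potassium channel gene KCNJ16, a basolateral channel subunit, rose from 0, 1.48, 0.908 and 1.48 FPKM to 17.1, 19.5 and 14.8 (3.28 ± 0.29), and another, KCNK5, by 1.80 ± 0.12. SCNN1A, the alpha subunit of the epithelial sodium channel, rose by 1.17 ± 0.12 to 5.23, 4.27 and 4.63 FPKM, while the gamma subunit gene SCNN1G was at 0. The phosphate carrier SLC20A1 (-1.76 ± 0.21) and the secreted regulator of phosphate and calcium STC1 (-1.35 ± 0.21) fell. ATP6V1B1, the proton pump subunit of acid-secreting epithelia, rose from 23.4, 18.7, 20.5 and 16.1 FPKM to 59.7, 47.7 and 41.5 (1.29 ± 0.16).

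Organic solute carriers moved both ways. Of 40 in the files 18 were tested, and 9 rose and 7 fell. SLC22A2, the basolateral organic cation transporter OCT2, went from 0, 0.182, 0.0543 and 0.357 FPKM to 14.7, 16.8 and 21.2 (4.01 ± 0.16). ABCC2, an apical pump for conjugated organic anions, rose from 2.5, 2.81, 3.35 and 2.63 FPKM to 24.1, 23.4 and 16.4 (2.53 ± 0.15), and the taurine transporter SLC6A6 rose by 1.57 ± 0.15. The named fallers carry nutrients: SLC7A5 (-1.77 ± 0.15) and SLC3A2 (-1.02 ± 0.16), which together import large neutral amino acids, the cystine importer SLC7A11 (-2.02 ± 0.20) and the lactate and pyruvate carrier SLC16A1 (-1.03 ± 0.15). The glucose transporter SLC2A1 fell from 225, 224, 208 and 178 FPKM to 106, 101 and 58.1 (-1.27 ± 0.21).

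Of 37 kidney and epithelial factors tested 17 rose and 7 fell (median 0.25). HNF4A, a master regulator of the proximal tubule and of liver, went from 0.301, 0.735, 0.539 and 0.853 FPKM to 26.8, 12.6 and 15.3 (3.52 ± 0.24, adjusted p = 6.65e-06), and its relative HNF4G rose by 1.03 ± 0.10. PAX8, which specifies the nephron epithelium, rose from 20.7, 30.1, 27.4 and 31.1 FPKM to 65.6, 66.7 and 67.1 (1.27 ± 0.15). IRX3, a factor of nephron segments, rose by 2.01 ± 0.18. The principal cell factor GATA3 did not pass the test, at 9.08 to 12.9 FPKM over the 7 libraries. KLF6 (-1.24 ± 0.22) and GRHL1 (-0.82 ± 0.14) fell.

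Retinoid genes rose in 8 of 10 tested, of 19 in the files (median 0.91). DHRS3, which turns retinal back into retinol, went from 0.406, 1.15, 1.14 and 1.88 FPKM to 24.8, 33 and 36.3 (3.94 ± 0.23, adjusted p = 4.77e-06). ALDH1A1, which oxidizes retinal to retinoic acid, rose from 86.7, 159, 150 and 181 FPKM to 523, 391 and 370 (1.60 ± 0.25), and LRAT, which stores retinol as esters, by 1.23 ± 0.14. The retinol carrier RBP4 rose from 11, 15.9, 15.1 and 18.8 FPKM to 37, 50.5 and 39.6 (1.43 ± 0.18). The member that fell was DHRS9 (-0.74 ± 0.14).

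Primary cilium genes rose in 34 of the 47 tested, of 52 in the files, with 2 falling and a median of 0.79, or 29 rising and a median of 0.61 without the libraries that stand apart. FOXJ1, a factor best known for the genes of motile cilia, went from 0, 0.381, 0.213 and 0.838 FPKM to 19.7, 12.9 and 16.6 (3.70 ± 0.21). PKHD1, whose product fibrocystin sits on the cilium and is mutated in recessive polycystic kidney disease, rose from 1.18, 1.43, 1.32 and 1.83 FPKM to 10.9, 8.65 and 10.9 (2.19 ± 0.14). IFT122, of the retrograde transport train, rose from 2.28, 2.6, 2.63 and 2.59 FPKM to 11.3, 9.05 and 8.65 (1.59 ± 0.12). EVC, which acts in Hedgehog signalling at the base of the cilium, was among the named genes with the largest rise, from 0.0316, 0.308, 0.14 and 0.538 FPKM to 15.2, 8.24 and 18 (3.51 ± 0.24). The 2 that fell were TMEM107 (-1.04 ± 0.23) and IFT20 (-0.47 ± 0.11). The motor subunit KIF3A, looked up after seeing the data, did not pass the test (0.04 ± 0.12).

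Basement membrane and matrix genes rose in 15 of 28 tested, of 45 in the files, and fell in 5 (median 0.55). COL18A1, a basement membrane collagen, went from 2.97, 5.96, 3.76 and 11.3 FPKM to 122, 107 and 141 (4.28 ± 0.33). AGRN, the proteoglycan agrin, went from 70, 82.6, 75 and 91.9 FPKM to 294, 254 and 254 (1.73 ± 0.13), and MMP14, a membrane-bound collagenase, rose by 1.83 ± 0.16. Genes of the laminin and type IV collagen network were singled out after their values were seen: COL4A1 went from 2.8, 7.7, 2.96 and 10.3 FPKM to 35, 20.9 and 44.5 (2.41 ± 0.41, adjusted p = 0.000872), COL4A2 rose by 2.21 ± 0.40, and LAMB3 by 1.13 ± 0.14, while LAMC1 and LAMA3 did not pass the test. The fallers include LOX, which crosslinks collagen, from 83.5, 37.3, 38.2 and 25.8 FPKM to 12.4, 10.1 and 7.99 (-1.96 ± 0.33), and TIMP3, an inhibitor of matrix proteases (-1.70 ± 0.33).

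Of the integrin and focal adhesion genes 8 of 27 rose and 6 fell (median -0.03), near the shares over all genes, and 3 fell without day 4 replicate 3. The collagen and laminin receptor subunit ITGA1 went from 4.13, 5.8, 3.92 and 6.53 FPKM to 24.2, 19.7 and 24.4 (1.98 ± 0.17), while the cytoskeletal linker PLEC (-0.81 ± 0.11) and the adhesion protein ZYX (-0.58 ± 0.15) fell. Actin genes fell in 18 of 35 and rose in 6 (median -0.38), with 3 rising without day 4 replicate 1, day 4 replicate 2 or day 0 replicate 3. DIAPH3, a formin that builds actin filaments, fell from 21.6, 21.5, 20.4 and 16.8 FPKM to 3.23, 3.07 and 1.94 (-2.50 ± 0.15), and MYH14, a nonmuscle myosin heavy chain, rose from 11.1, 18, 17.4 and 17.8 FPKM to 46.2, 45.5 and 44.3 (1.46 ± 0.16). Mesenchymal markers fell in 8 of 14 tested and rose in none (median -0.71). They rose in 1 without day 0 replicate 1, day 0 replicate 2 or the libraries that stand apart, and in 2 with quantile normalization. The intermediate filament gene VIM, one of the most abundant messages at day 0, went from 1702, 1682, 1643 and 1333 FPKM to 359, 428 and 286 (-2.16 ± 0.18, adjusted p = 1.63e-05).

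**Figure D3:**
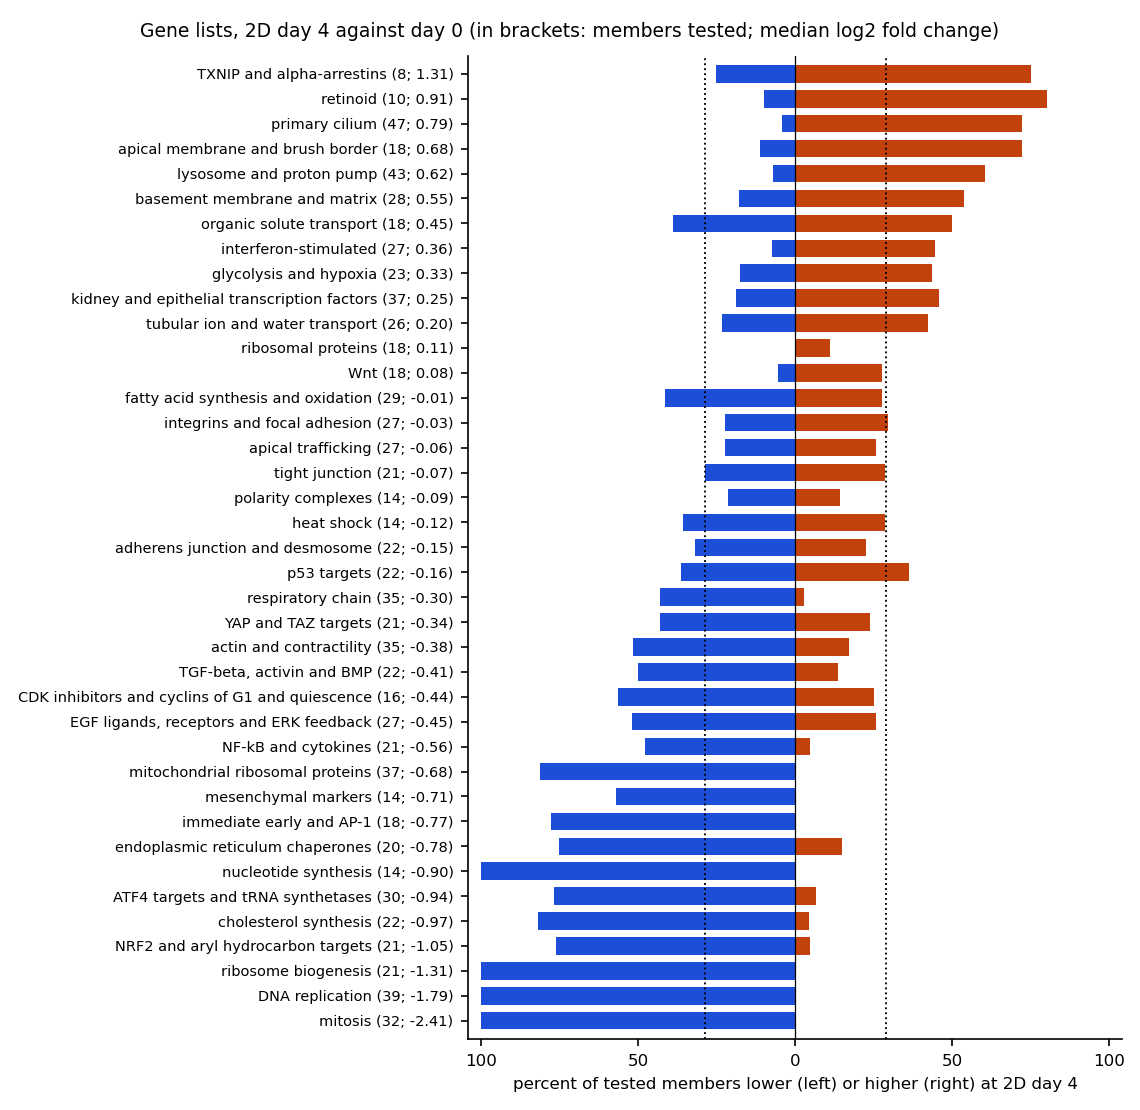
Bars give the percent of tested members of each list that fell (blue, left) or rose (orange, right) at 2D day 4; the figures in brackets are the members tested and their median log2 fold change, and the dotted lines are the shares over all genes tested, 28.7% and 28.8%. Lists run from TXNIP and its relatives at the top (median 1.31) to mitosis at the bottom (-2.41).

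Every cell cycle gene tested in the mitosis and DNA replication lists fell. In mitosis this was 32 of 32 (median -2.41, range -2.92 to -1.43), and in DNA replication 39 of 39 (median -1.79, with -0.48 for the weakest fall). CCNA2, the cyclin of S phase and mitotic entry, went from 60.4, 54.9, 51.8 and 42.5 FPKM to 8.59, 5.32 and 3.78 (adjusted p = 9.88e-06), from a mean of 52.4 to one of 5.9. UBE2C, the ubiquitin-conjugating enzyme of the anaphase-promoting complex, went from 65.9, 52.2, 65.8 and 45.5 FPKM to 7.82, 7.5 and 4.95 (-2.92 ± 0.18), and the mitotic kinase PLK1 from 45.7, 41.8, 42.3 and 31 to 7.41, 5.92 and 4.17 (-2.61 ± 0.19). The proliferation marker MKI67 went from 35.6, 37, 33.6 and 29.6 FPKM to 7.28, 4.04 and 3.5 (-2.61 ± 0.20). In replication, the helicase subunit MCM5 went from 48.1, 48.2, 45.2 and 37.9 FPKM to 7.79, 6.08 and 4.06 (-2.75 ± 0.18), and the origin licensing factor CDC6 fell by 2.66 ± 0.21 on the log2 scale. Genes of the last steps of division were among the named genes with the largest falls, with ECT2 (-2.75 ± 0.20), KIF20A (-2.62 ± 0.20) and KIF23 (-2.60 ± 0.15) of cytokinesis and the condensin subunit NCAPG (-2.72 ± 0.18). At day 4 the messages of this group were low but present in each library, and replicate 1 was the highest of the 3 for CCNA2, UBE2C, PLK1, MKI67, MCM5 and CDC6.

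Regulators of the G1 phase split by direction. Of 16 tested, 4 rose and 9 fell. The cyclins CCND1 (35.8, 33.3, 34.4 and 24.4 FPKM, then 9.15, 9.75 and 5.64; -1.86 ± 0.19) and CCND2 (-1.67 ± 0.19) and their kinase CDK4 (-1.18 ± 0.17) fell. The inhibitor gene CDKN1B, p27, rose from 5.41, 3.91, 4.66 and 4.72 FPKM to 11.8, 10.3 and 10.8 (1.08 ± 0.12), while CDKN1A, p21, fell from 13.1, 11, 16.9 and 8.32 to 3.1, 3.82 and 1.84 (-1.76 ± 0.24). CCNG2 (1.72 ± 0.15), RBL2 (0.55 ± 0.13) and BTG1 (0.65 ± 0.13), which are linked to quiescence, rose. Among p53 targets, to which CDKN1A belongs, 8 of 22 rose and 8 fell.

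Genes for biosynthesis fell widely. All 21 tested ribosome biogenesis genes fell (median -1.31), among them the nucleolar proteins NOP56 (48.5, 36, 37.6 and 31.1 FPKM, then 11.6, 12.8 and 9.75; -1.66 ± 0.16) and NCL (-1.43 ± 0.16). MYC, a factor that drives this program and that was looked up after seeing the data, fell by 1.60 ± 0.19. All 14 nucleotide synthesis genes fell (median -0.90), led by CTPS1, which makes CTP (-2.10 ± 0.17). Mitochondrial ribosomal proteins fell in 30 of 37 and rose in none (median -0.68). By contrast the cytosolic ribosomal proteins rose in 2 of 18 tested and fell in none (median 0.11). The 2 risers became 0 without day 4 replicate 1 or replicate 2, and 1 without day 0 replicate 2, 3 or 4. They became 6 with quantile normalization. Fallers numbered 1 without day 0 replicate 4 and 2 with the replicate block. Only 24 of the 44 listed were found in the files by symbol, and the reads of such genes can be shared with copies elsewhere in the genome.

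Amino acid and secretory pathway genes fell too. ATF4 targets and tRNA synthetases fell in 23 of 30 and rose in 2 (median -0.94). MTHFD2, a mitochondrial folate enzyme, went from 69.6, 50.7, 48.3 and 47.1 FPKM to 8.23, 15.8 and 8.05 (-2.28 ± 0.23), and PSAT1, of serine synthesis, from 102, 111, 105 and 116 to 39, 42.5 and 36.7 (-1.44 ± 0.11), while SESN2, which restrains mTORC1, rose from 3.77, 3.08, 3.75 and 4.2 to 9.49, 11.9 and 11.6 (1.35 ± 0.13). Endoplasmic reticulum chaperone genes fell in 15 of 20 (median -0.78), with CRELD2 (-1.64 ± 0.14) and HSP90B1 (-1.15 ± 0.15) as examples, and rose in 3. Cholesterol synthesis genes fell in 18 of 22 and rose in 1 (median -0.97). CYP51A1, which demethylates lanosterol, fell (-1.46 ± 0.15), and TM7SF2, a sterol reductase, rose by 0.46 ± 0.11. Over the fatty acid list 8 of 29 rose, a share near that over all genes, and 12 fell (median -0.01). The synthetic enzymes FASN (-1.54 ± 0.18) and ACLY (-1.43 ± 0.24) fell and ETFB, which passes electrons from fatty acid oxidation, rose from 10.1, 11.3, 10.9 and 12.7 FPKM to 30.2, 34.3 and 29.3 (1.40 ± 0.11).

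Genes of several signalling pathways were examined next. None of 18 immediate early and AP-1 genes tested rose and 14 fell (median -0.77). FOSB went from 21.6, 15.1, 42.4 and 36.5 FPKM to 0.734, 1.09 and 0.721 (-3.91 ± 0.31, adjusted p = 1.33e-05), and FOS from 141, 127, 155 and 179 to 21.7, 23.1 and 17.5 (-2.80 ± 0.15). Of EGF ligands, receptors and ERK feedback genes 14 of 27 fell and 7 rose. The receptors ERBB2 (11.7, 17.7, 15.1 and 17.5 FPKM, then 45.6, 44.5 and 41.2; 1.46 ± 0.15), ERBB3 (1.66 ± 0.16) and ERBB4 (1.59 ± 0.25) and the ligand EGF (8.13, 11.9, 10.7 and 14.9, then 47.4, 47.8 and 45.5; 1.98 ± 0.17) rose, while the ligand NRG1 (-1.93 ± 0.16) and the ERK phosphatase DUSP6 (-1.03 ± 0.15) fell. NF-kB and cytokine genes fell in 10 of 21 and rose in 1, or 2 without day 4 replicate 3. With quantile normalization 13 fell and 3 rose. The chemokine CCL2 fell from 16.4, 30, 26.6 and 44.4 FPKM to 8.56, 4.29 and 1.68 (-2.48 ± 0.42), with -0.86 within the libraries that stand apart and -3.17 without them. In the TGF-beta, activin and BMP list 11 of 22 fell, among them the BMP antagonist NOG (-1.94 ± 0.15) and the activin subunit INHBA (-1.69 ± 0.25), and 3 rose, led by LTBP3, which stores latent TGF-beta in the matrix, from 8.41, 8.47, 7.72 and 8.66 FPKM to 45.1, 48.7 and 43 (2.32 ± 0.10).

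YAP and TAZ are coactivators that respond to stretch and crowding. Of 21 of their targets tested 9 fell and 5 rose (median -0.34). CYR61, a secreted matrix protein, went from 364, 276, 246 and 226 FPKM to 96.4, 120 and 99.1 (-1.38 ± 0.18), and F3, tissue factor, fell by 2.09 ± 0.17. CRIM1, which binds BMPs, rose from 61.5, 67, 56.3 and 73.4 FPKM to 218, 175 and 205 (1.62 ± 0.13), and so did PTPN14 (0.91 ± 0.13), NUAK2 (0.72 ± 0.13) and WWC1 (0.84 ± 0.15); PTPN14 and WWC1 also encode inhibitors of YAP.

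NRF2 and aryl hydrocarbon receptor targets, which defend against oxidants and foreign compounds, fell in 16 of 21 and rose in 1 (median -1.05). NQO1, a quinone reductase, had 219, 777, 577 and 331 FPKM at day 0 and 54, 44.6 and 33.8 at day 4 (-3.26 ± 0.39, adjusted p = 0.000119). The day 0 libraries differed among themselves by more than 3-fold, yet each lay above all day 4 libraries. The fall was 2.00 on the log2 scale within the libraries that stand apart and 3.74 without them. GCLM, of glutathione synthesis (-1.49 ± 0.17), and the thioredoxin reductase TXNRD1 (-1.45 ± 0.14) fell as well, and the riser was the epoxide hydrolase EPHX1, at 0.154 FPKM or less at day 0 and 2.66, 1.72 and 1.92 at day 4.

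TXNIP binds thioredoxin, limits glucose uptake and is controlled by the sugar-sensing factor MLXIPL with its partner MLX. It went from 22, 43.7, 40.8 and 52.9 FPKM to 675, 599 and 684 (4.06 ± 0.25, adjusted p = 5.55e-06). Its arrestin relative ARRDC3 rose by 1.93 ± 0.11, and MLXIPL rose from 0.132, 0.283, 0.226 and 0.224 FPKM to 7.27, 4.85 and 5.35 (2.47 ± 0.15). MLX instead fell, from 15.9, 16.1, 13.8 and 11.4 FPKM to 9.31, 9.88 and 5.97 (-0.72 ± 0.18). Over the list 6 of 8 rose and 2 fell. Glycolysis and hypoxia genes rose in 10 of 23 and fell in 4, with a switch among enzymes of the same step: the phosphofructokinase gene PFKL rose from 18.6, 23.1, 22.7 and 23.4 FPKM to 73.9, 77.6 and 60.4 (1.64 ± 0.13) and PFKP fell from 82.2, 82.2, 77.3 and 59.9 to 27.7, 31.3 and 22.1 (-1.45 ± 0.16). Hexokinase HK2 fell (-1.74 ± 0.26). Respiratory chain and citrate cycle genes fell in 15 of 35 and rose in 1 (median -0.30), or 2 without day 4 replicate 3. With quantile normalization 14 fell and 5 rose (median -0.10). Cytochrome c, CYCS, was at 321, 207, 207 and 173 FPKM and then 51.5, 51.1 and 39.8 (-2.21 ± 0.21).

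Lysosome and proton pump genes rose in 26 of 43 and fell in 3 (median 0.62), with 0 falling without day 4 replicate 3, 1 without day 0 replicate 2 and 5 without the libraries that stand apart. The sterol carrier NPC2 went from 99.3, 125, 108 and 128 FPKM to 312, 274 and 281 (1.33 ± 0.13), the protease CTSA from 14.2, 16.8, 15.9 and 16 to 32.4, 33.7 and 30 (0.98 ± 0.10), and TFEB, a factor that drives lysosomal genes, from 1.22, 1.89, 1.69 and 1.65 to 4.09, 4.7 and 4.52 (1.06 ± 0.13). Interferon-stimulated genes rose in 12 of 27 and fell in 2 (median 0.36), or 9 and 4 without the libraries that stand apart; the 2 that fell became 1 without day 4 replicate 2 and 0 without day 4 replicate 3, day 0 replicate 2 or day 0 replicate 3. MX1, an antiviral GTPase, had 0.22, 3.12, 2.05 and 1.78 FPKM and then 12.4, 9.93 and 7.97 (adjusted p = 0.000891). Among Wnt genes 5 of 18 rose, a share near that over all genes, with the feedback inhibitor APCDD1 (1.49 ± 0.17) and the receptor FZD4 (1.18 ± 0.12), and 1 fell, the Wnt-inactivating enzyme NOTUM (-1.11 ± 0.13). Heat shock genes rose in 4 of 14 and fell in 5, or 3 without day 4 replicate 3, day 0 replicate 1 or day 0 replicate 2. The small chaperone HSPB1 rose from 14.3, 21.8, 18.3 and 10.5 FPKM to 88.7, 74.1 and 58 (2.14 ± 0.23), and HSP90AB1 fell by 1.45 ± 0.22.

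To see where the day 4 monolayer differed from cells polarizing in 3D, it was set against the cysts of day 3 and day 5 in a fit of 14 libraries. Of the 11051 genes 2675 (24.2%) were higher in the monolayer and 2261 (20.5%) lower, with a median of 0.02. Without the replicate 1 libraries that stand apart the balance turned, with 1904 higher and 2286 lower. This comparison uses the same day 4 libraries as the one above, and the substrate, the shape of the culture and the days of growth differ together and cannot be told apart. Cytosolic ribosomal proteins were lower in the monolayer in 16 of 18 (median -0.69) and mitochondrial ones in 28 of 37 (median -0.50). Respiratory chain and citrate cycle genes were lower in 28 of 35 and higher in 1 (median -0.62). Mitosis genes were lower in 30 of 32 and DNA replication genes in 33 of 39. CCNA2, for example, was at 26.7 and 21.1 FPKM in the day 3 cysts and 20.9 and 13.3 in the day 5 cysts, above the monolayer's 8.59, 5.32 and 3.78 (-1.66 ± 0.23, adjusted p = 0.000136). UBE2C (-1.52 ± 0.16) and CKS2 (-1.81 ± 0.27), a subunit of the cyclin-dependent kinases, were likewise lower in the monolayer. Basement membrane genes were higher in the monolayer in 26 of 28 and lower in none (median 1.02), YAP and TAZ targets in 20 of 21 and lower in none (median 1.10), and interferon-stimulated genes in 22 of 27 and lower in none.

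Single genes differed widely between these cultures. CDH16 was at 66.1, 39.6 and 49.6 FPKM in the monolayer and at 3.7, 3.52, 7.81 and 9.53 in the cysts (2.95 ± 0.14, adjusted p = 7.92e-08). COL4A1 measured 0.617, 0.679, 3.56 and 5.56 FPKM in the cysts, against 35, 20.9 and 44.5 in the monolayer (3.46 ± 0.35), and COL4A2 differed by 3.35 ± 0.35. CRIM1, NUAK2 and PTPN14, which rose in the monolayer, had means of 51, 11.5 and 6.43 FPKM in the cysts and 64.5, 27.7 and 11.8 at day 0, and differed between the cultures by 2.01 ± 0.13, 1.99 ± 0.13 and 1.72 ± 0.12. TGFB2, a TGF-beta ligand, was at 1.43, 0.958, 0.402 and 0.543 FPKM in the cysts and 11.3, 7.83 and 9.55 in the monolayer (2.55 ± 0.16). PODN (2.32 ± 0.29), LOX (2.12 ± 0.31) and CYR61 (2.19 ± 0.24) were also higher in the monolayer. In the other direction RBP4 was at 223, 251, 400 and 282 FPKM in the cysts against 37, 50.5 and 39.6 (-2.72 ± 0.19), NQO1 at 372, 312, 156 and 124 against 54, 44.6 and 33.8 (-2.30 ± 0.33), and ATP1B1 at 353, 303, 255 and 233 against 115, 93.6 and 86.7 (-1.52 ± 0.14). These genes were chosen after their values were seen.

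**Figure D4:**
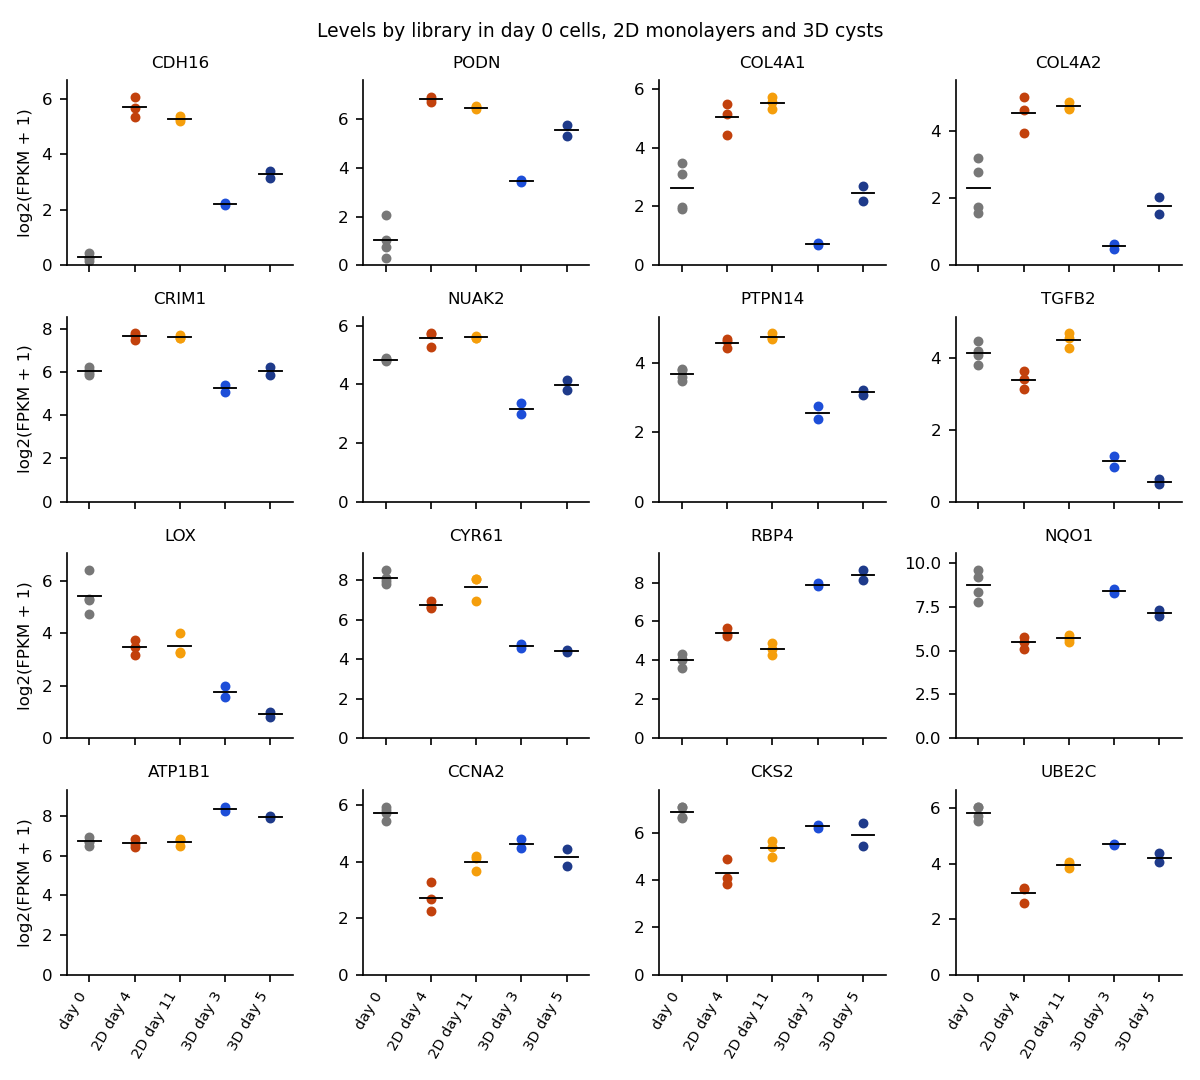
Each panel is a gene and each point a library, on a vertical axis of log2(FPKM + 1) that starts at 0, with a bar at the group mean; groups are the cells for seeding, the monolayers of day 4 and day 11 and the cysts of day 3 and day 5. CDH16, COL4A1 and CRIM1 are highest in the monolayers, RBP4 and ATP1B1 in the cysts, and CCNA2, CKS2 and UBE2C have their lowest group in the monolayer of day 4.

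Few genes differed between the monolayers of day 4 and day 11. Of 11051 genes 115 (1.04%) were higher at day 11 and 17 (0.154%) lower. Mitosis genes accounted for 24 of those that were higher and DNA replication genes for 7. PLK1, at 7.41, 5.92 and 4.17 FPKM at day 4, had a mean of 12.3 at day 11 (0.99, adjusted p = 0.0251), against 31 to 45.7 at day 0. CDH16 and PDZK1 did not differ past the threshold at day 11, as CDH16 had a mean of 37.8 FPKM (adjusted p = 0.214) and PDZK1 of 153 (adjusted p = 0.576). The count rests on single libraries: it was 1 without replicate 1 or replicate 2 of day 11, 10 without replicate 2 and 2 without replicate 3 of day 4, and 432 without replicate 3 of day 11, and it was 344 with the replicate number as a block. Without replicate 2 or replicate 3 of day 0, which share only the estimate of the spread, it was 76 and 53. Quantile normalization gave 255 genes higher and 128 lower.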

How the data were processed

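RNA was extracted with the AllPrep kit and made into KAPA stranded mRNA libraries, per the labels' protocols. The authors deposited 1 FPKM table per library. The submitters' processing notes name the aligner HISAT2 2.1.0, the dog genome as canFam3 and CanFam3.1, and Cufflinks 2.2.1; whether counting used strand is not given in the sources used here. Absolute depth is unknown; relative depth was read from the steps of FPKM values under 0.15.

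Genes at 1 FPKM or more in at least 2 of the 7 libraries were tested on log2(FPKM + 1) with limma 3.58.1 (trend, two-sided, R 4.3.3), and p-values were adjusted by the Benjamini-Hochberg method over all genes tested, with a threshold of 0.05. Among genes with a mean of 10 FPKM or more, 30 of 5325 were listed at 0 in some library. The comparisons with the cysts and with day 11 came from 1 limma fit of 14 libraries on the same genes. The script was tested on simulated data.

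Named genes have a symbol of their own and are the 15 largest changes in each direction (no overlap between the groups, and a group mean that reaches 5 FPKM), up to 4 per gene list and direction by adjusted p, and the markers; others are said to be chosen afterwards. Some genes that met the rule are not reported here. The members and lists were chosen with earlier results of these data known.

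For day 0 and day 4 libraries with the same replicate number, deviations from the group means were correlated across genes. The r was 0.596, 0.298 and 0.157 for numbers 1, 2 and 3. The labels state no pairing. The main tests did not pair the libraries, and a block for the replicate number entered only as an alternative. Libraries with different numbers correlated at -0.446 to 0.361, and replicates 2, 3 and 4 of day 0 at 0.124 to 0.361 with replicates 2 and 3 of day 4, so the values set apart number 1 alone. The alternatives were other scalings, pseudocounts, filters and sets of libraries, a replicate block and a term for the libraries that stand apart.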

Additional observations from a re-analysis of the deposited data

Results flagged for a closer look

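In the day 0 group of 4, 1 library lay far from the others in 8 of 162 genes named, by Dixon's test on log2(FPKM + 1); at the chance rate of about 1 in 20 groups, 8.1 such genes would be found. Replicate 1 was the low library for USH1C (2.28 FPKM), IFT122 (2.28), MYH14 (11.1), PFKL (18.6) and TIMM13 (0), and the high one for DUSP6 (24.8 FPKM). Replicate 4 was the low library for CDH1 (208 FPKM) and VIM (1333).

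The monolayer of day 4 and the cysts of days 3 and 5 differed past the threshold of limma's test in 16 genes that were singled out after their values were seen; each lay on the same side of the threshold in 22 of 22 alternatives. On the log2 scale the monolayer was higher by 2.95 in CDH16, 2.32 in PODN, 3.46 in COL4A1, 3.35 in COL4A2, 2.01 in CRIM1, 1.99 in NUAK2, 1.72 in PTPN14, 2.55 in TGFB2, 2.12 in LOX and 2.19 in CYR61. The difference was -2.72 in RBP4, -2.30 in NQO1, -1.52 in ATP1B1, -1.66 in CCNA2, -1.81 in CKS2 and -1.52 in UBE2C, which were lower in the monolayer.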

How the results depend on the processing

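Between day 0 and day 4, 6363 of 11051 genes changed. The lowest count of 17 alternatives was 5034 (2184 higher, 2850 lower), where 5 FPKM was required and only 8327 genes were tested. The highest was 7151 of 11051, with median-ratio scaling. Leaving out 1 library gave 5528 to 6127. With the replicate block the count was 6967. In all alternatives 4786 of the genes kept their call, and none reversed. The 4936 genes that differed from the cysts ranged from 3751 to 5703, and were 4589 (3023 higher, 1566 lower) without replicate 3 of day 4 and 4190 (1904 higher, 2286 lower) without the libraries that stand apart. The 132 genes of day 11 against day 4 became 248 with median-ratio scaling, 383 with quantile normalization and 344 with the replicate block. They became 302 with a term for the libraries that stand apart and 43, of 15640 tested, without the filter. The count was 1 to 432 when 1 library was left out, and the cause was not tested. Of 272 single genes 253 kept their call in every alternative and none reversed; the replicate block changed the call of ESRP1 alone. The median of 7 lists changed sign under some alternative: apical trafficking (-0.06, at most 0.09), fatty acid (-0.01, 0.19), heat shock (-0.12, 0.12), integrins (-0.03, 0.13), polarity (-0.09, 0.01), ribosomal proteins (0.11, -0.06) and principal cell markers (0.48, -0.21). The principal cell list had only 2 members tested, and its median of -0.21 came where 5 FPKM was required. The median of all genes lay between -0.10 and 0.06. Without counts, counting error and the limit of a value of 0 cannot be given.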
